A study of Mus musculus with 24 samples.

Results

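The change of vehicle-treated mouse intestinal organoids with time in culture was read from 8 of the 24 libraries of the series: the 4 titled DMSO at 24 h were compared with the 4 titled DMSO at 6 h. Both groups received DMSO, the solvent used as the vehicle control, and neither received a peptide. The other 16 libraries come from organoids given dFz7-21, a peptide described in the series as a blocker of the Wnt receptor Frizzled 7, or Fz7-21S, also at 24 h and 6 h in groups of 4. Polyadenylated RNA from primary organoids of small intestine was sequenced in every library. The labels give no strain, age, passage, medium, DMSO dose or hour of day, nor what the hours were counted from, so time with DMSO, age of the medium and hour of day cannot be told apart. Nothing in them states whether replicates came from different cultures or mice, so a p-value here refers to the spread among the libraries, which could be technical only.

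Intestinal organoids are closed epithelial cysts with crypt-like buds. Stem cells at the base of the buds divide under Wnt, R-spondin, Notch and epidermal growth factor signals, and their daughters become absorptive enterocytes or secretory goblet, Paneth, enteroendocrine and tuft cells. Handling and growth factors induce immediate early genes within minutes to hours, whereas growth programmes such as ribosome production and mitosis follow the supply of nutrients and mitogens.

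Levels are given as CPM, a gene's read count scaled to the size of its library after normalisation for library composition, and changes as log2 of 24 h over 6 h ± SE. A gene was called where the adjusted p of the test across all genes was below 0.05. In bulk RNA, fewer cells of a type and less RNA per cell cannot be told apart.

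Replicates 1 and 2 of the 6 h group stood apart from the other 6 libraries before any comparison. Transcripts of mesenchymal cells, the connective tissue cells under the epithelium, were present there: the 32 markers of the list summed to 125 to 145 CPM in the 24 h libraries, and to 557, 577, 73.4 and 75.1 CPM in 6 h replicates 1 to 4. Most of the sum at 24 h was Fbln1, a secreted matrix protein, at 110.0 to 128 CPM. Col1a1, a fibrillar collagen chain, had 0.238, 0.0952, 0.103 and 0.247 CPM in the 24 h libraries, against 80.6, 10.2, 0.125 and 0.395 CPM in the 6 h libraries. Its log2 change of -6.99 was -4.39 without 6 h replicate 1 and -0.57 without replicates 1 and 2, called in neither case. Vim, the intermediate filament of mesenchymal cells, had 2.47, 2.57, 3.27 and 3.62 CPM in the 24 h libraries, against 53.3, 100.2, 4.94 and 5.34 CPM in the 6 h libraries. Its log2 change of -3.79 was -2.84 without 6 h replicate 2 and -0.79 without replicates 1 and 2, called in neither case. With dFz7-21 24 h replicate 3, which also holds mesenchymal transcripts, left out too, Vim was called at -0.79 (adjusted p = 0.0124). Col1a1 was not called there (adjusted p = 0.553). With only the 6 remaining DMSO libraries Vim was called as well (adjusted p = 0.00299). Dcn and Lum, proteoglycans of fibroblasts, had no read in any of the 8 libraries. By mean log2(CPM + 1), 131 genes were at least 2-fold higher in 6 h replicates 1 and 2 than in 6 h replicates 3 and 4, and 0 were at least 2-fold lower. The added 1 shrinks differences in genes of low level, so such genes may be missed either way. The first principal component of the 8 libraries, with 66.9% of the variance, ran from -30.8 to -20.9 at 24 h, while 6 h replicates 1 and 2 lay at 31.4 and 37.0 and replicates 3 and 4 at 13.0 and 13.4. Results are therefore given with all 8 libraries and, where it matters, without these 2.

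**Figure D1:**
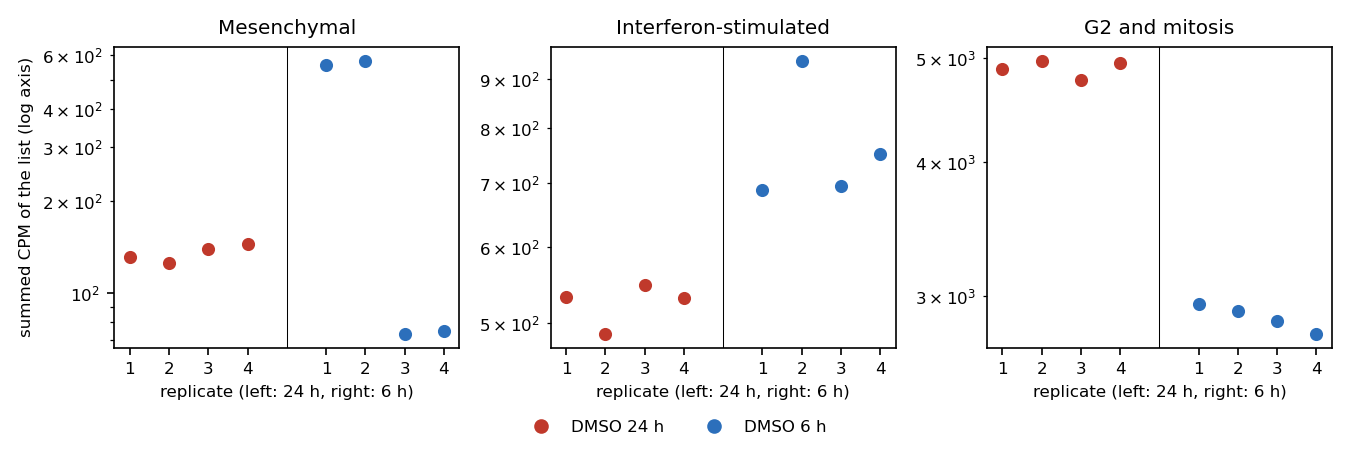
Summed CPM of 3 gene lists in each DMSO library (vertical log axis; replicates 1 to 4 on the horizontal axis, 24 h in red on the left, 6 h in blue on the right). The mesenchymal sum was 557 and 577 CPM in 6 h replicates 1 and 2 and at most 145 CPM elsewhere, the interferon sum was highest in 6 h replicate 2 at 941 CPM, and the G2 and mitosis sum was 4773 to 4972 CPM at 24 h against 2766 to 2950 CPM at 6 h.

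Epithelial markers were abundant. Epcam, the epithelial adhesion molecule, stood at 1468 to 1565 CPM at 24 h and 2008 to 2248 CPM at 6 h, and Hnf4a, a master regulator of intestinal epithelium, at 1433 to 1538 CPM at 24 h and 1411 to 1480.0 CPM at 6 h. Markers of other lineages were low: the 18 immune markers summed to 6.21 to 7.58 CPM at 24 h and 4.13 to 5.93 CPM at 6 h, and the 16 endothelial and glial markers to 18.6 to 23.5 CPM at 24 h and 13.0 to 16.4 CPM at 6 h. Ptprc, the CD45 antigen of leukocytes, had 0 to 2 reads in each library, and Adgre1 of macrophages, Cdh5 of endothelium and Sox10 of glia had 0 in all 8. Total counts lay between 20446610 and 33102993 reads per library. Reads of mitochondrial genes made up 0.471% to 0.588% of a library at 24 h and 0.575% to 0.696% at 6 h, and the part of this difference in the results was not tested.

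With time in culture, DMSO organoids had more transcripts of mitosis, of absorptive enterocytes, of fatty acid synthesis and oxidation and of the genes for nutrient shortage, and fewer of ribosome production, immediate early and injury genes, epithelial junctions, matrix and keratins, interferon-stimulated genes and MHC class II. Of 15429 genes tested, 8058 were called (52.2%): 4209 were higher at 24 h (27.3%) and 3849 were lower (24.9%). A change of at least 2-fold was found for 891 of those higher (5.77%) and 753 of those lower (4.88%). Without 6 h replicates 1 and 2, 3367 of 15820 genes tested were higher (21.3%) and 3073 lower (19.4%). Of the 8058 called genes, 6303 were called in the same direction without these 2 libraries and 0 in the opposite direction. Among the 753 that were at least 2-fold lower, 563 were still called lower without them. The median change over all genes tested was 0.0007, and the median size of a called change was 0.51. Groups without overlap were common, so they are not particular to the genes named below. There were 5022 such genes that were also called both with and without 6 h replicates 1 and 2, with an established symbol and a mean log2 CPM of at least 2. Of these 2603 were higher and 2419 lower. The share without overlap over all genes tested was not determined.

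The 12 largest rises and 12 largest falls were picked only among genes whose groups did not overlap, so their separation follows from that rule. The 12 largest rises included 3 transporters. Slc5a12, a sodium-coupled carrier of lactate and other monocarboxylates (GRCm38 chromosome 2, 110597299 to 110649345), had 7.75, 8.04, 9.49 and 8.28 CPM in the 24 h libraries, against 0.605, 0.444, 0.747 and 0.712 CPM in the 6 h libraries. All 4 libraries at 24 h lay far above all 4 at 6 h (13.4-fold higher, log2 change 3.75 ± 0.25, adjusted p = 6.96e-12). Klhl24, a Kelch-like adaptor of a ubiquitin ligase (chromosome 16, 20097553 to 20129226), had 36.04, 43.2, 46.1 and 43.3 CPM in the 24 h libraries, against 5.09, 6.66, 4.11 and 4.43 CPM in the 6 h libraries. No library of one group reached the other (8.25-fold higher, log2 change 3.04 ± 0.17, adjusted p = 3.83e-13). Dmbt1, a secreted mucin-like protein of epithelial defence, had 98.8, 115, 108 and 164 CPM in the 24 h libraries, against 19.5, 28.1, 22.2 and 17.7 CPM in the 6 h libraries, with 24 h replicate 4 the highest (log2 change 2.47 ± 0.17, adjusted p = 2.67e-11). Slc6a20a, the transporter of proline in the brush border, had 39.8, 35.8, 37.8 and 44.9 CPM in the 24 h libraries, against 6.66, 7.23, 9.09 and 6.64 CPM in the 6 h libraries (log2 change 2.42 ± 0.11, adjusted p = 7.07e-15). The groups were again apart in both genes, as the rule required.

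The other 8 of the 12 genes with the largest rises changed by 2.24 to 2.69 on the log2 scale. They were Msln, the surface glycoprotein mesothelin (2.69), Prelp, a small leucine-rich proteoglycan (2.55), Bco2, a mitochondrial enzyme that cleaves carotenoids (2.52), and Dyrk1b, a kinase linked to quiescence (2.44). Calcoco1, an adaptor of selective autophagy, rose by 2.39, Slc4a5, a bicarbonate transporter, by 2.37, Rec8, a cohesin subunit known from meiosis, by 2.27, and Tfpi2, an inhibitor of serine proteases, by 2.24. By the rule that named them, their groups did not overlap and the call held without 6 h replicates 1 and 2.

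The 12 largest falls included a neuropeptide gene, a pair of prion-like genes and 3 interferon-stimulated genes. By the same rule their groups did not overlap. Calcb, which encodes a calcitonin gene-related peptide (chromosome 7, 114716555 to 114723368), had 0.594, 0.428, 0.928 and 0.206 CPM in the 24 h libraries, against 14.7, 13.3, 15.1 and 15.7 CPM in the 6 h libraries. It was 26.1-fold lower at 24 h (log2 change -4.71 ± 0.23, adjusted p = 4.37e-14). Prnd, the prion-like doppel gene, had 2.17, 0.143, 1.93 and 1.90 CPM in the 24 h libraries, against 32.3, 27.3, 30.3 and 31.8 CPM in the 6 h libraries (log2 change -4.24 ± 0.24, adjusted p = 1.07e-12). Prn, a model that overlaps Prnd on chromosome 2, had 2.56, 0.190, 2.27 and 2.31 CPM in the 24 h libraries, against 33.1, 28.2, 31.01 and 32.3 CPM in the 6 h libraries, and reads of the pair may be shared between them. In both, 24 h replicate 2 was the lowest library. Rrad, a small GTPase, had 1.07, 0.762, 0.516 and 0.659 CPM in the 24 h libraries, against 12.8, 9.79, 11.6 and 12.2 CPM in the 6 h libraries, with no overlap (log2 change -3.92 ± 0.19, adjusted p = 2.87e-14).

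Aldh1a3, which makes retinoic acid, had 1.46, 1.19, 1.51 and 1.56 CPM in the 24 h libraries, against 18.6, 14.7, 15.03 and 16.7 CPM in the 6 h libraries. Its 24 h libraries lay within 1.19 to 1.56 CPM, and it was 11.3-fold lower at 24 h (log2 change -3.49 ± 0.14, adjusted p = 2.13e-15). Lama3, the alpha chain of laminin-332, had 4.63, 2.90, 3.89 and 2.88 CPM in the 24 h libraries, against 37.7, 29.5, 33.4 and 36.4 CPM in the 6 h libraries (log2 change -3.23 ± 0.15, adjusted p = 2.51e-14). Fosl1, the Fra-1 subunit of the transcription factor AP-1, had 4.99, 4.05, 4.75 and 4.90 CPM in the 24 h libraries, against 43.3, 37.5, 40.4 and 42.7 CPM in the 6 h libraries (log2 change -3.12 ± 0.18, adjusted p = 5.94e-13). Every library at 24 h was below every library at 6 h in these 3 genes, as the rule that named them required. Slc2a6, a sugar transporter, was lower by a log2 change of -3.24, and the other 4 of the 12, Rsad2, Isg15, Ifit1 and Cd74, belong to the interferon and antigen presentation genes described further on.

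**Figure D2:**
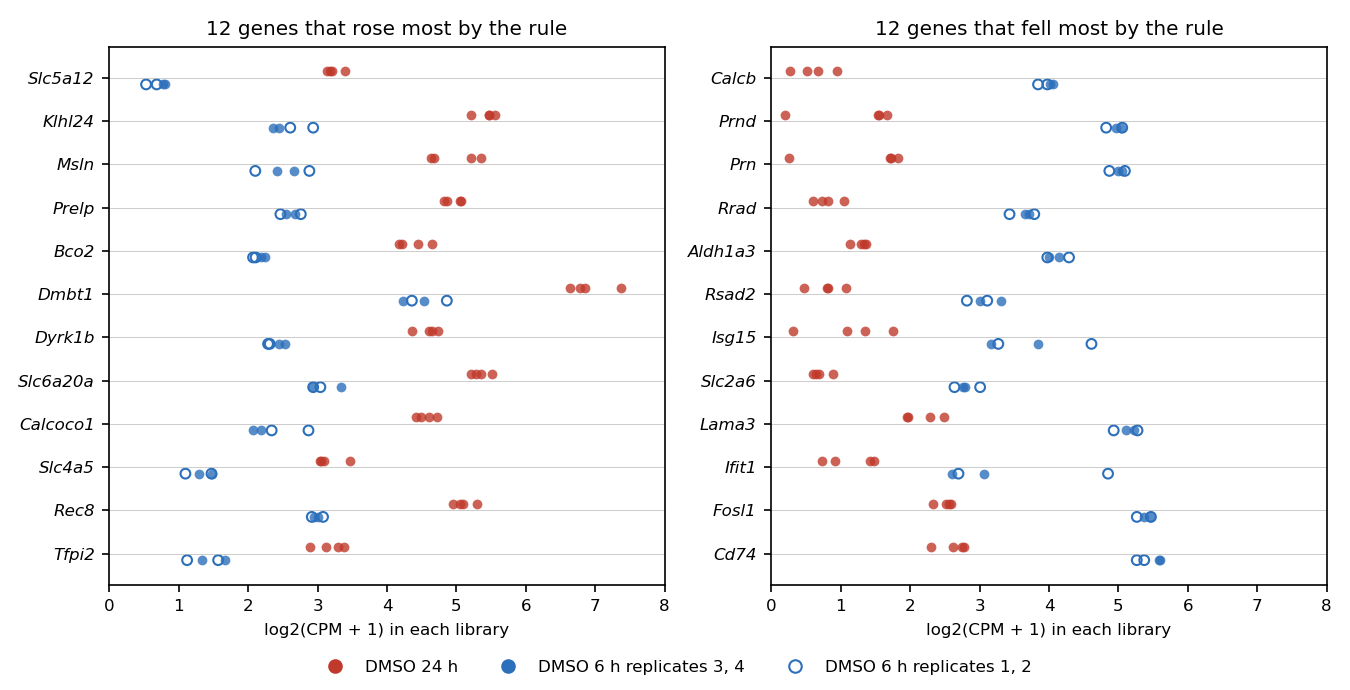
Level of the 12 genes with the largest rise (left) and the 12 with the largest fall (right) in each library, on the horizontal axis as log2(CPM + 1). Red points are the 4 libraries at 24 h, filled blue points 6 h replicates 3 and 4 and open blue points 6 h replicates 1 and 2. In all 24 genes the groups did not overlap, as the rule that named them required. In Ifit1 the open point far to the right is 6 h replicate 2 at 27.9 CPM.

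Sets of genes with a shared role were compared through 46 lists with 1150 entries. Among all genes tested, 27.3% rose and 24.9% fell, so a list with similar shares called each way is like the background.

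**Figure D3:**
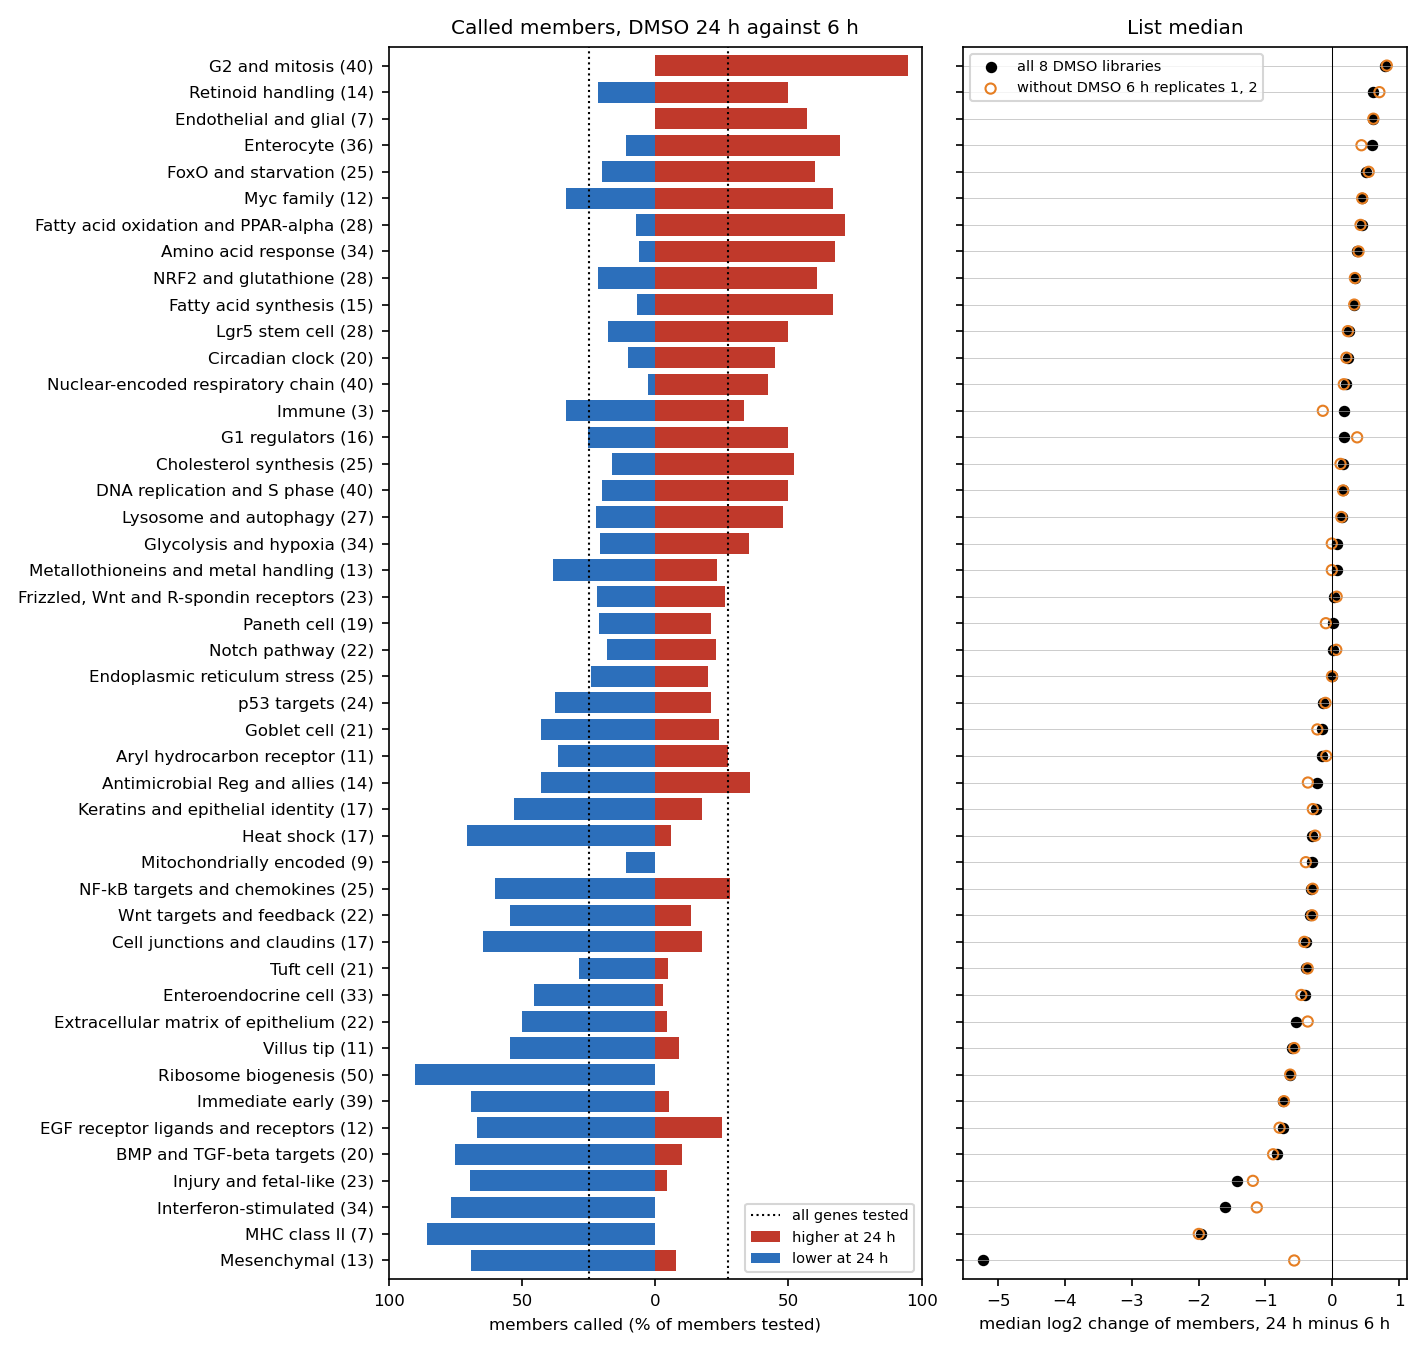
Left, the share of each list's tested members (number in brackets) called higher at 24 h, in red to the right, or lower, in blue to the left; dotted lines mark 27.3% and 24.9%, the shares among all genes tested. Right, the median log2 change of the list with all 8 DMSO libraries (black) and without 6 h replicates 1 and 2 (open orange); ribosome biogenesis (45 of 50 lower) and G2 and mitosis (38 of 40 higher) reach farthest from the dotted lines, and the mesenchymal median moves from -5.23 with all 8 to -0.57 without these 2.

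Genes of mitosis rose together. Of 40 tested genes of G2 and mitosis, 38 were higher at 24 h and 0 lower, with a median change of 0.79 (37 higher and a median of 0.82 without 6 h replicates 1 and 2). Ccnb2, a mitotic cyclin, had 146, 137, 139.6 and 133 CPM in the 24 h libraries, against 49.8, 46.7, 44.01 and 47.4 CPM in the 6 h libraries. It was 2.96-fold higher at 24 h (log2 change 1.56 ± 0.08, adjusted p = 8.71e-14). Mki67, the Ki-67 protein of dividing cells, had 370.4, 410.1, 374 and 432 CPM in the 24 h libraries, against 201, 208, 195 and 188 CPM in the 6 h libraries (log2 change 1.004 ± 0.12, adjusted p = 3.18e-07). Cdc20, an activator of the anaphase-promoting complex, had 196, 196, 179 and 183 CPM in the 24 h libraries, against 106, 98.1, 98.9 and 101 CPM in the 6 h libraries (log2 change 0.90 ± 0.07, adjusted p = 2.35e-10). The groups did not overlap in these 3, nor in Nusap1 (1.32), a spindle protein, Kif2c (1.14), a microtubule depolymerase, Aurkb (0.93), a chromosomal passenger kinase, Plk1 (0.80), a mitotic kinase, or Ccnb1 (0.72), cyclin B1.

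Genes of DNA replication were mixed, with 20 of 40 higher, 8 lower and a median of 0.15. Without 6 h replicates 1 and 2, 18 were higher and 4 lower. Tk1, thymidine kinase of the salvage pathway, led with 65.5, 73.9, 69.02 and 61.2 CPM in the 24 h libraries, against 19.9, 22.7, 22.9 and 22.2 CPM in the 6 h libraries (log2 change 1.62 ± 0.10, adjusted p = 1.07e-12). Its groups were far apart, as were those of Lig1, a DNA ligase (0.77), and Gins2 of the replicative helicase (0.67), whereas E2f1, the transcription factor of S phase entry, overlapped at 39.5 to 41.1 CPM at 24 h and 36.6 to 41.8 CPM at 6 h (95% interval of the log2 change -0.13 to 0.20, adjusted p = 0.735). Mcm2, a helicase subunit, fell by 0.21 on the log2 scale with all 8 libraries (adjusted p = 0.00601), and its change of -0.19 without 6 h replicates 1 and 2 missed the threshold (0.0551).

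Regulators of G1 moved both ways, 8 of 16 higher and 4 lower. Inhibitors of cyclin-dependent kinases did not move together. Cdkn1a, which encodes p21, fell, with 189.5, 178, 172 and 178 CPM in the 24 h libraries, against 386, 379, 394 and 412 CPM in the 6 h libraries (log2 change -1.13 ± 0.08, adjusted p = 1e-11). Cdkn1b (p27, 0.75), Cdkn2c (p18, 1.05) and Cdkn2d (p19, 1.33) rose. Rb1, the retinoblastoma protein that holds back E2F factors, rose by 0.95. Of the cyclins of G1, Ccnd1 fell by 0.28 and Ccnd2 by 0.47 on the log2 scale.

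Promoters of the mitotic genes are shown because these genes moved together; the motifs searched were chosen after the values were seen. The RefSeq table of GRCm38.p6 held 250 bases upstream of the start for 11334 of the genes tested, and both strands were searched. The sequence TTTGAA, the core of the cell cycle homology region, was found upstream of 10 of 32 genes of G2 and mitosis with a promoter in the table (31.2%) and of 13% of all 11334. CCAAT, the box bound by NF-Y, was found in 24 of the 32 (75%) and in 40.1% of all. In the mixed list of DNA replication, CCAAT was found in 22 of 34 genes (64.7%) and TTTGAA in 6 (17.6%), so the box was not particular to the mitotic genes. The stretch of Cdc20 lies at chr4:118437344-118437413 on the minus strand and ends at the base before the start, and that of Ccnb1 at chr13:100786537-100786606 on the minus strand. Both are written 5′ to 3′, with TTTGAA in capitals in Cdc20 and CCAAT in capitals in Ccnb1. A match describes the letters and shows no binding.
Cdc20: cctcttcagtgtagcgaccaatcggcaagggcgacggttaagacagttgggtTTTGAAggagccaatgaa
Ccnb1: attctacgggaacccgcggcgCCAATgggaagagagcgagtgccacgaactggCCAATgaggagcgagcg

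Genes of ribosome production fell while mitotic genes rose. Of 50 tested genes of ribosome biogenesis, 0 were higher and 45 lower at 24 h, with a median of -0.63, and 45 were lower without 6 h replicates 1 and 2 (median -0.63). Nop56, a core protein of snoRNA particles that guide methylation of ribosomal RNA, had 112, 114, 106 and 112 CPM in the 24 h libraries, against 216, 207, 205 and 209 CPM in the 6 h libraries (log2 change -0.92 ± 0.04, adjusted p = 3.96e-14). Nop2, a methyltransferase of ribosomal RNA, had 108, 95.9, 97.3 and 109.6 CPM in the 24 h libraries, against 190.0, 193, 183 and 192 CPM in the 6 h libraries (log2 change -0.88 ± 0.05, adjusted p = 5.68e-13). Both were separated without overlap, like Nop58 (-0.84), Rrp12 (-0.89), Bop1 (-0.65), Polr1b, a subunit of RNA polymerase I (-0.67), Ddx21 (-0.64) and Ncl, nucleolin (-0.45). Fbl, the methyltransferase fibrillarin, overlapped at 12.9 to 21.9 CPM at 24 h and 16.4 to 18.5 CPM at 6 h (interval -0.45 to 0.16, adjusted p = 0.425).

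All 12 members of the Myc network were called, 8 higher and 4 lower. Myc, an activator of ribosome genes, fell, with 167, 168, 179 and 173 CPM in the 24 h libraries, against 272, 258, 256 and 264 CPM in the 6 h libraries (log2 change -0.61 ± 0.05, adjusted p = 1.09e-10). The Mxd proteins, which compete with Myc for its partner Max and repress the same sites, split: Mxd4 rose by 1.49 and Mxd3 by 1.46, while Mxd1 fell by 1.39 on the log2 scale. Mycl, a relative of Myc, rose by 0.76. The groups did not overlap in any of these 5. CACGTG, the E box that Myc binds with Max, stood upstream of 3 of 45 genes of ribosome biogenesis (6.67%) and of 9.68% of all genes with a promoter in the table.

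**Figure D4:**
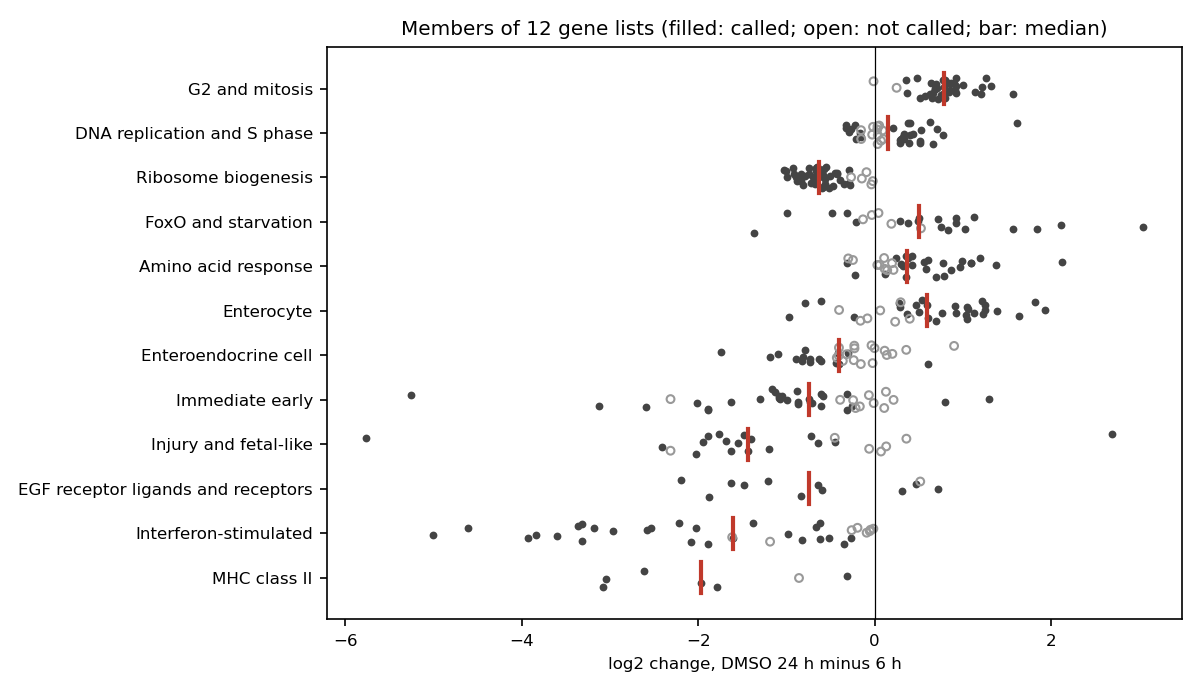
Log2 change at 24 h minus 6 h (horizontal axis) of every tested member of 12 lists, with called members filled, members not called open and the list median as a red bar. The medians of G2 and mitosis (0.79) and ribosome biogenesis (-0.63) lie on opposite sides of 0, and the injury list spreads from -5.76 to 2.69.

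Genes that respond to a shortage of insulin signalling or nutrients rose more often than they fell. Of 25 genes of the FoxO and starvation list, which forkhead factors induce when insulin signalling is low, 15 were higher and 5 lower, with a median of 0.50. Without 6 h replicates 1 and 2 they numbered 13 higher and 1 lower, and leaving out single libraries gave 2 lower without 6 h replicate 2 and 3 lower without any 1 of 24 h replicates 1, 2 and 4 or 6 h replicate 1. Pdcd4, an inhibitor of translation that growth signals degrade, had 124, 134, 147 and 141 CPM in the 24 h libraries, against 28.2, 36.04, 31.01 and 30.3 CPM in the 6 h libraries. It was 4.33-fold higher at 24 h (log2 change 2.12 ± 0.07, adjusted p = 2.05e-16). Foxo4 itself had 47.1, 54.4, 47.97 and 53.5 CPM in the 24 h libraries, against 22.9, 23.1, 22 and 24.6 CPM in the 6 h libraries (log2 change 1.13 ± 0.06, adjusted p = 7.55e-14). Sesn1, a sestrin that restrains mTORC1, rose by 0.93, Txnip, which limits glucose uptake, by 0.92, and Ccng2, a cyclin of growth arrest, by 0.49, all without overlap. Trib1, a pseudokinase, fell by 0.998, and Irs2, an adaptor of the insulin receptor, overlapped (-0.03, interval -0.58 to 0.52).

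Autophagy and lysosome genes were 13 of 27 higher and 6 lower. Ulk1, the kinase that starts autophagy, had 74.7, 79.1, 85.2 and 86.6 CPM in the 24 h libraries, against 43.8, 45.97, 43.3 and 40.2 CPM in the 6 h libraries (log2 change 0.91 ± 0.09, adjusted p = 1.13e-08). Wipi1, which acts at the forming autophagosome, rose by 1.26, Map1lc3b, the LC3 protein of its membrane, by 0.86, and Bnip3l, a receptor for the removal of mitochondria, by 1.05. Sqstm1, the cargo receptor p62, fell by 0.45, and Ctsl, a lysosomal protease, by 0.98. Lamp1, a protein of the lysosomal membrane, lay at 634 to 689 CPM at 24 h and 655 to 693 CPM at 6 h and was not called (0.673).

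The amino acid response, the genes that ATF4 induces when amino acids run short, had 23 of 34 members higher and 2 lower at 24 h (median 0.37; 22 and 2 without 6 h replicates 1 and 2), with 1 lower without any 1 of 24 h replicates 2 and 4 or 6 h replicate 4. Chac1, which breaks down glutathione, had 36.8, 37.8, 33.4 and 31.4 CPM in the 24 h libraries, against 8.47, 8.40, 8.30 and 6.64 CPM in the 6 h libraries. It was 4.37-fold higher at 24 h (log2 change 2.13 ± 0.08, adjusted p = 2.94e-16). Asns, asparagine synthetase, had 258, 235, 258 and 242 CPM in the 24 h libraries, against 201, 178, 185 and 179 CPM in the 6 h libraries (log2 change 0.42 ± 0.05, adjusted p = 2.57e-07). Trib3, a pseudokinase that restrains Akt, had 22.5, 23.1, 19.4 and 21.5 CPM in the 24 h libraries, against 7.94, 7.80, 8.72 and 8.89 CPM in the 6 h libraries (log2 change 1.38 ± 0.09, adjusted p = 3.19e-12). The groups did not overlap in these 3, nor in Gpt2, a mitochondrial alanine transaminase (1.19), Cth, which makes cysteine (0.996), Psat1 of serine synthesis (0.70) or Ddit4, an inhibitor of mTORC1 (1.10). The mRNA of Atf4, which is regulated mainly at translation, overlapped at 449.8 to 517 CPM at 24 h and 436 to 478 CPM at 6 h (interval -0.09 to 0.21), and Ddit3, the stress factor CHOP, at 13.2 to 18.9 CPM at 24 h and 14.4 to 16.6 CPM at 6 h (interval -0.27 to 0.33).

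The composite element TGATGNAA, at which ATF4 and C/EBP factors bind in genes of this kind, was found upstream of 9 of 29 genes of the amino acid response (31%) and of 2.51% of the 11334 promoters, with both strands searched. The stretch of Chac1 lies at chr2:119351027-119351086 on the plus strand, with the match reading on the opposite strand, and that of Asns at chr6:7693210-7693269 on the minus strand, ending at the base before the start. Both are shown because Chac1 led the list and Asns is the classical gene for this element, with the match in capitals.
Chac1: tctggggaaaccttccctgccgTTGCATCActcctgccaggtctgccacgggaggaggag
Asns: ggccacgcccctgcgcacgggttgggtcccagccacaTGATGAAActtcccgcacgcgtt

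Chaperones moved the other way. Of 17 heat shock genes 1 was higher and 12 were lower, among them Hspa1b and Hspa1a, near-identical HSP70 genes whose reads may be lost or split. Hspa1b had 10.8, 9.66, 7.81 and 8.49 CPM in the 24 h libraries, against 23.5, 22.1, 22.9 and 23.6 CPM in the 6 h libraries (log2 change -1.32 ± 0.12, adjusted p = 8.07e-10). Hsph1, a partner of HSP70, fell by 0.68. Genes of endoplasmic reticulum stress were 5 of 25 higher and 6 lower, close to the shares among all genes tested, and 1 and 5 without 6 h replicates 1 and 2. Without any 1 of 24 h replicates 1, 3 and 4 or 6 h replicates 1, 3 and 4, 1 to 3 members were higher. Herpud1, which clears misfolded proteins, rose by 0.65, Hspa5, the chaperone BiP, fell by 0.32, and Xbp1, a regulator of this response, was not called (0.05, interval -0.05 to 0.15).

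In fatty acid synthesis 10 of 15 members were higher at 24 h, desaturases among them, and 1 lower. That 1 was not called without any 1 of 24 h replicates 3 and 4 or 6 h replicates 3 and 4, and 2 were lower without 24 h replicate 1. Scd1, which makes monounsaturated fatty acids, had 291, 308, 304 and 314 CPM in the 24 h libraries, against 71.3, 83.3, 79.2 and 75.9 CPM in the 6 h libraries. It was 3.93-fold higher at 24 h (log2 change 1.97 ± 0.08, adjusted p = 1.23e-15). Fads1, a desaturase of polyunsaturated fatty acids, had 217, 238, 246 and 231 CPM in the 24 h libraries, against 77.5, 87.6, 82.8 and 77.8 CPM in the 6 h libraries (log2 change 1.51 ± 0.07, adjusted p = 5.78e-15). Scd2 (1.22), Fads2 (1.34) and Srebf1, the transcription factor of lipid synthesis (0.71), rose without overlap. Fasn, fatty acid synthase, lay at 555 to 619.5 CPM at 24 h and 453 to 512 CPM at 6 h and was not called (0.27, interval 0.01 to 0.53, adjusted p = 0.0803). Cholesterol synthesis was mixed, 13 of 25 higher and 4 lower. Among the 13 were Tm7sf2 (1.003), Dhcr7 (0.86) and Mvd (0.64). The 4 lower were Hsd17b7 (-0.65), Cyp51 (-0.23), Msmo1 (-0.22) and Sc5d (-0.13). Sqle, another enzyme of the pathway, was not called (-0.06, interval -0.15 to 0.03).

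Fatty acid oxidation genes were 20 of 28 higher and 2 lower (median 0.44). Hadh, a dehydrogenase of the mitochondrial cycle, had 599, 572, 591 and 572 CPM in the 24 h libraries, against 308, 322, 333 and 334 CPM in the 6 h libraries (log2 change 0.85 ± 0.06, adjusted p = 3.37e-11). Acadm, which starts the cycle on medium-chain fatty acids, rose by 0.57 and Acaa2, which ends it, by 0.56, whereas Cpt1a, the carrier of fatty acids into mitochondria, was not called (0.12, interval -0.03 to 0.28). Nuclear genes of the respiratory chain had 17 of 40 higher and 1 lower, but 6 higher without 6 h replicates 1 and 2, 5 without these and dFz7-21 24 h replicate 3, 10 without 6 h replicate 2 alone, 22 with only the 6 DMSO libraries without 6 h replicates 1 and 2, and 29 when fitted with only the libraries compared. The 1 lower was not called without any 1 of 24 h replicates 1, 3 and 4 or 6 h replicates 1 and 4, nor in the last 2 of these fits or with no filter on low counts.

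Glycolysis and hypoxia genes were near the background, 12 of 34 higher and 7 lower (4 lower without 24 h replicate 4). Members moved both ways. Slc2a1, the glucose transporter GLUT1, had 102, 99.8, 101 and 93.3 CPM in the 24 h libraries, against 174, 172, 182 and 190.0 CPM in the 6 h libraries (log2 change -0.86 ± 0.07, adjusted p = 1.72e-10). Hk2, hexokinase 2, fell by 0.81 and Pfkfb3, which makes an activator of glycolysis, by 1.48, while the muscle isoform of phosphofructokinase, Pfkm, rose by 1.26 and Pdk1, which restrains entry of pyruvate into mitochondria, by 0.85. Ldha, lactate dehydrogenase A, overlapped at 609 to 708 CPM at 24 h and 645 to 725 CPM at 6 h (interval -0.27 to 0.12).

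Stem cell genes did not move as one. Of 28 genes of the Lgr5 stem cell list 14 were higher at 24 h and 5 lower (median 0.25). Smoc2, a secreted protein of crypt base cells, had 536, 576, 644 and 581 CPM in the 24 h libraries, against 150.0, 162, 164 and 158 CPM in the 6 h libraries. It was 3.69-fold higher at 24 h and had the smallest p of the stem cell list (log2 change 1.88 ± 0.06, adjusted p = 1.32e-16). Lgr5, the R-spondin receptor that marks these cells, had 80.04, 91.5, 125 and 91.9 CPM in the 24 h libraries, against 38.6, 50.4, 44.8 and 43.9 CPM in the 6 h libraries (log2 change 1.13 ± 0.16, adjusted p = 2.7e-06). Its 24 h libraries were all above those at 6 h, with replicate 3 the highest. Aqp4, a water channel, rose by 1.42, Rgmb by 1.08 and Prom1, the surface protein CD133, by 0.95. Olfm4, an abundant secreted protein of the same cells, had 1146, 1223, 1643 and 1458 CPM in the 24 h libraries, against 1607, 1507, 1441 and 1452 CPM in the 6 h libraries. These overlapped (log2 change -0.14, interval -0.40 to 0.13, adjusted p = 0.391). Ascl2, a transcription factor that maintains stem cell identity, also overlapped at 26.1 to 32.4 CPM at 24 h and 29.9 to 35.95 CPM at 6 h (interval -0.48 to 0.20).

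Genes that Wnt signals induce fell more often than they rose, 12 of 22 lower and 3 higher, and the list shares members with the stem cell list. Cd44, an adhesion receptor, fell, with 130.0, 119.8, 120.4 and 122 CPM in the 24 h libraries, against 339.5, 332, 315 and 312 CPM in the 6 h libraries (log2 change -1.40 ± 0.10, adjusted p = 1.97e-11). Tcf7, a transcription factor of the pathway, fell by 0.71. Axin2, the feedback inhibitor often read as a measure of the pathway, overlapped at 250.1 to 296 CPM at 24 h and 258 to 284 CPM at 6 h (log2 change 0.02, interval -0.20 to 0.24), as did Sp5 (-0.08 to 0.50) and Nkd1 (-0.87 to 0.11).

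Receptors for Wnt were near the background, 6 of 23 higher and 5 lower. Fzd7, the receptor that the peptide dFz7-21 is described as blocking, had 49.6, 57.98, 47.3 and 53.2 CPM in the 24 h libraries, against 45.8, 50.2, 47.8 and 46.1 CPM in the 6 h libraries, and the groups overlapped (log2 change 0.13, interval -0.11 to 0.37, adjusted p = 0.367). Fzd5, a second Frizzled of this epithelium, rose by 0.47, with 224, 268, 219.7 and 256 CPM in the 24 h libraries, against 166, 185, 182 and 164 CPM in the 6 h libraries. Ror2 and Ryk, other Wnt receptors, fell by 0.55 and 0.31, and Lgr4, a relative of Lgr5, was not called (0.03, interval -0.18 to 0.24). In the Notch pathway, which keeps stem cells from secretory fate, 5 of 22 were higher and 4 lower: the ligand Dll1 (0.56) and the receptor Notch1 (0.49) rose, and the ligands Jag1 (-0.73) and Jag2 (-0.78) and the receptor Notch2 (-0.77) fell.

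Transcripts of digestion and transport by absorptive enterocytes rose. Of 36 enterocyte genes 25 were higher at 24 h and 4 lower (median 0.60; 19 and 5 without 6 h replicates 1 and 2). Slc2a5, the fructose transporter, had 20.5, 21.3, 20.8 and 25.2 CPM in the 24 h libraries, against 4.77, 5.87, 6.52 and 5.93 CPM in the 6 h libraries. It was 3.81-fold higher at 24 h (log2 change 1.93 ± 0.09, adjusted p = 1.51e-14). Slc15a1, the peptide transporter, had 82.3, 76.4, 75.1 and 84.5 CPM in the 24 h libraries, against 20.8, 21.2, 24.9 and 23.6 CPM in the 6 h libraries (log2 change 1.82 ± 0.09, adjusted p = 3.36e-14). Sis, the disaccharidase sucrase-isomaltase, had 646, 610.4, 624 and 734 CPM in the 24 h libraries, against 232, 287, 321 and 262 CPM in the 6 h libraries (log2 change 1.25 ± 0.15, adjusted p = 2.05e-07). All 3 were separated without overlap. Brush border peptidases rose too, Mep1b by 1.39 and Enpep by 1.23, and so did Fabp2, a fatty acid binding protein (1.06), and Dgat1 of triglyceride synthesis (0.92).

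Other enterocyte genes fell, or their call depended on the libraries used. Apoa4, an apolipoprotein, had 194, 207, 167 and 276 CPM in the 24 h libraries, against 261, 258, 356 and 407 CPM in the 6 h libraries. The groups overlapped, and the change of -0.60 was called (adjusted p = 0.00188, and -0.86 without 6 h replicates 1 and 2). Krt20, the keratin of mature cells, fell by 0.97 with 721, 602, 604 and 646 CPM in the 24 h libraries, against 1176, 1122, 1311 and 1424 CPM in the 6 h libraries. Alpi, intestinal alkaline phosphatase, was higher by 0.36 with all 8 libraries (adjusted p = 0.00497), and by 0.22, past no threshold, without 6 h replicates 1 and 2 (adjusted p = 0.162). Genes of the villus tip, the oldest enterocytes, were 1 of 11 higher and 6 lower, but the list shares members with others. The lower ones were Krt20 and Apoa4, also in the enterocyte list, the immediate early genes Fos and Junb, the receptor Egfr, and Creb3l3 (-0.38). Ada was the member that rose (0.96).

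Retinoid genes rose more often than they fell, 7 of 14 higher and 3 lower. Dhrs3, which reduces retinal, had 12.8, 13.1, 11.9 and 11.9 CPM in the 24 h libraries, against 4.09, 3.39, 3.53 and 3.68 CPM in the 6 h libraries (log2 change 1.76 ± 0.13, adjusted p = 8.45e-11). Lrat, which stores retinol as esters (1.46), Rbp2, the cellular retinol binding protein (1.13), and Bco1, which splits carotene (1.12), rose, while Rdh10, the first enzyme of retinoic acid synthesis, fell by 1.08 alongside Aldh1a3.

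Secretory lineages were mixed or lower. Enteroendocrine genes were 1 of 33 higher and 15 lower (median -0.40), and 2 were higher without any 1 of 24 h replicates 1 and 2 or 6 h replicates 1 and 4. Chga, a protein of hormone granules, had 28.3, 23.7, 29.2 and 26.2 CPM in the 24 h libraries, against 49.6, 46.6, 49.7 and 54.5 CPM in the 6 h libraries (log2 change -0.89 ± 0.11, adjusted p = 4.72e-07). Neurog3, the factor of their progenitors, went against the list, with 26.98, 28.6, 32.4 and 25.4 CPM in the 24 h libraries, against 20.3, 17.9, 18.8 and 17.7 CPM in the 6 h libraries (log2 change 0.60 ± 0.09, adjusted p = 3.78e-06). Both genes had no overlap between the groups. Among hormones, Nts, neurotensin, fell by 1.18 and Gcg, the precursor of GLP-1, by 0.40, and Cck was not called (0.11, interval -0.20 to 0.43).

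Goblet cell genes were 5 of 21 higher and 9 lower. Muc2, the secreted gel mucin, fell, with 58.3, 55.98, 73.8 and 70.1 CPM in the 24 h libraries, against 123, 108, 124 and 122 CPM in the 6 h libraries (log2 change -0.88 ± 0.10, adjusted p = 8.8e-08). Clca1, another protein of the mucus, rose, with 32.8, 32.4, 32.3 and 37.7 CPM in the 24 h libraries, against 10.5, 10.8, 12.7 and 12.5 CPM in the 6 h libraries (log2 change 1.54 ± 0.10, adjusted p = 8.58e-12). Tff3, a trefoil peptide of the same cells, overlapped (0.04, interval -0.21 to 0.29). Paneth cell genes were close to the background, 4 of 19 higher and 4 lower, with the antimicrobial lysozyme Lyz1 at 951 to 1158 CPM at 24 h and 999.7 to 1159 CPM at 6 h and not called (-0.09, interval -0.22 to 0.05). Tuft cell genes were 1 of 21 higher and 6 lower: Avil fell by 0.64, Ptgs1, cyclooxygenase 1, rose by 1.82, and Dclk1 was not called (-0.32, interval -0.67 to 0.03).

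Immediate early genes, the first to be transcribed after stimulation, were lower at 24 h in 27 of 39 and higher in 2 (median -0.74; 26 and 2 without 6 h replicates 1 and 2). Fos, a subunit of AP-1, had 23.7, 18.9, 22.4 and 22.2 CPM in the 24 h libraries, against 82.9, 75.95, 82.1 and 83.4 CPM in the 6 h libraries. It was 3.70-fold lower at 24 h (log2 change -1.89 ± 0.08, adjusted p = 1.38e-15). Egr1, a zinc finger factor downstream of growth factors, had 82.1, 83.7, 75.5 and 69.7 CPM in the 24 h libraries, against 173, 172, 168 and 166 CPM in the 6 h libraries (log2 change -1.13 ± 0.07, adjusted p = 7.9e-12). Junb (-0.87) and Klf6 (-0.99) fell as well, all without overlap, whereas Btg2, an antiproliferative gene, rose by 0.80. Feedback inhibitors of the ERK pathway fell: Spry2 by 0.87 and Dusp6 by 0.58, with the ERK-responsive factor Etv4 by 0.71 and with Etv5 not called (interval -0.27 to 0.25).

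The list of ligands, receptors and inhibitors of the epidermal growth factor receptor family had 8 of 12 members lower and 3 higher. Btc, Hbegf and Areg, ligands that the epithelium makes itself, were among the lower ones. Btc, betacellulin, had 25.2, 25.4, 25.3 and 24.1 CPM in the 24 h libraries, against 122, 108, 115 and 112 CPM in the 6 h libraries. It was 4.57-fold lower at 24 h (log2 change -2.19 ± 0.09, adjusted p = 1.71e-15). Hbegf, the heparin-binding ligand, had 20.5, 19.7, 16.9 and 17.7 CPM in the 24 h libraries, against 58.6, 53.4, 56.1 and 62.2 CPM in the 6 h libraries (log2 change -1.62 ± 0.08, adjusted p = 3.38e-14). Areg, amphiregulin, had 97.98, 75.02, 76.5 and 86.4 CPM in the 24 h libraries, against 244, 200.2, 231 and 261 CPM in the 6 h libraries (log2 change -1.48 ± 0.10, adjusted p = 2.18e-11). No library at 24 h reached the 6 h libraries in these 3. The receptor Egfr fell by 1.21, its inhibitor Errfi1 by 0.84, and the inhibitor Lrig1 rose by 0.47.

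Genes of injured or fetal-like epithelium, a state that follows damage, were lower in 16 of 23 and higher in 1 (median -1.43; 14 lower and a median of -1.19 without 6 h replicates 1 and 2). Sprr1a, a cornified envelope protein induced in wounds, had 23.6, 22.2, 22.5 and 20.6 CPM in the 24 h libraries, against 112, 97.9, 122 and 140.3 CPM in the 6 h libraries. It was 5.30-fold lower at 24 h (log2 change -2.41 ± 0.16, adjusted p = 8.85e-12). F3, tissue factor of the clotting cascade, had 118, 105, 96.4 and 94.2 CPM in the 24 h libraries, against 423, 372, 437 and 453 CPM in the 6 h libraries (log2 change -2.02 ± 0.08, adjusted p = 2.2e-15). Clu, the chaperone clusterin that marks revival stem cells, had 38.4, 24.6, 26.6 and 29.99 CPM in the 24 h libraries, against 93.8, 80.3, 81.95 and 93.6 CPM in the 6 h libraries (log2 change -1.54 ± 0.11, adjusted p = 4.06e-11). The groups did not overlap in these 3, nor in Plaur, the urokinase receptor (-1.94), Il1rn, an antagonist of interleukin 1 (-1.63), or Anxa1 (-0.72). Ly6a, Sca-1 of the regenerating epithelium, overlapped at 17.7 to 31.6 CPM at 24 h and 19.2 to 27.3 CPM at 6 h (interval -0.50 to 0.38), and Msln was the member that rose.

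Ccn1, a matrix protein that YAP induces, depended on single libraries, with 7.93, 7.14, 7.84 and 6.71 CPM in the 24 h libraries, against 25.4, 55.7, 11.9 and 16.1 CPM in the 6 h libraries. Its change of -1.88 (adjusted p = 0.0298) was -0.91 without 6 h replicates 1 and 2 (adjusted p = 0.389) and was not called without any 1 of the 4 libraries at 24 h or without 6 h replicate 2 (-1.26). Its relative Ccn2 was not called (adjusted p = 0.0683), with 2.14, 2.19, 1.03 and 1.73 CPM in the 24 h libraries, against 8.22, 23.1, 1.66 and 1.94 CPM in the 6 h libraries, highest in the 2 libraries with mesenchymal transcripts.

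Genes of keratins, matrix and junctions fell more often than they rose. Cldn4, a claudin of tight junctions, had 214, 195, 193 and 186 CPM in the 24 h libraries, against 977, 852, 995 and 1093 CPM in the 6 h libraries (log2 change -2.31 ± 0.10, adjusted p = 2.89e-15). Cldn15, which forms channels for sodium in the small intestine, rose in contrast, with 429, 409, 439 and 434 CPM in the 24 h libraries, against 155, 167, 174 and 171 CPM in the 6 h libraries (log2 change 1.36 ± 0.05, adjusted p = 6.6e-16). The groups were apart in both. In the list of junctions and claudins 11 of 17 members were lower and 3 higher, in that of epithelial matrix 11 of 22 were lower and 1 higher (7 and 2 without 6 h replicates 1 and 2), and in that of keratins and epithelial identity 9 of 17 were lower and 3 higher. Krt18, a keratin of simple epithelium, fell by 1.43 and its partner Krt8 by 0.96, and so did the general epithelial markers Cdh1 (-0.57) and Epcam (-0.51). Lamb3, the beta chain of laminin-332, fell by 0.52.

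TGANTCA, the site of AP-1, was found upstream of 4 of 14 injury genes with a promoter in the table (28.6%), of 0 of 28 immediate early genes and of 5.99% of all 11334, with both strands searched. In the list of epithelial matrix it was found in 1 of 17 (5.88%), and the share in the junction list was not determined. Sprr1a and Cldn4 are shown because they were among the largest falls of the injury and junction lists, with TGANTCA in capitals. Cldn15, the claudin that rose, also held a match, TGAGTCA at 214 to 208 bases before the start. The stretch of Sprr1a lies at chr3:92485981-92486040 on the minus strand and that of Cldn4 at chr5:134947055-134947114 on the minus strand.
Sprr1a: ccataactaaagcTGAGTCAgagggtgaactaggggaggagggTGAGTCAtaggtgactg
Cldn4: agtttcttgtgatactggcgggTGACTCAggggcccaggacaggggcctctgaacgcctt

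Targets of BMP and TGF-beta, signals that hold back crypt growth, were lower in 15 of 20 and higher in 2 (median -0.82; 12 lower without 6 h replicates 1 and 2). Pmepa1, a feedback inhibitor of TGF-beta signalling, had 14.97, 17.1, 15.3 and 16.4 CPM in the 24 h libraries, against 62.5, 54.3, 51.98 and 58.1 CPM in the 6 h libraries (log2 change -1.83 ± 0.17, adjusted p = 5.36e-09). Id1, a direct target of BMP, had 46.9, 46.4, 41.3 and 35.3 CPM in the 24 h libraries, against 85.05, 71.9, 79.1 and 86.5 CPM in the 6 h libraries (log2 change -0.93 ± 0.13, adjusted p = 2.93e-06). Both fell without overlap, as did Skil, a corepressor of SMAD factors (-0.99), Smad7, an inhibitor of the pathway (-0.62), and Id2 (-0.65). Id3 fell by 0.91, but 2 other gene models carry the same counts and the value is uncertain. Bambi, a decoy receptor that Wnt also induces, rose by 1.04.

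Interferon-stimulated genes were lower at 24 h in 26 of 34 and higher in 0 (median -1.61). Without 6 h replicates 1 and 2, 19 were lower (median -1.13). The 36 members of the list summed to 486 to 547 CPM at 24 h, and to 689, 941, 695 and 752 CPM in 6 h replicates 1 to 4, so that replicate 2 was the highest, and its part in the list's change was not tested beyond leaving it out. Isg15, a ubiquitin-like protein induced by interferon, had 1.13, 0.238, 1.55 and 2.39 CPM in the 24 h libraries, against 8.65, 23.5, 7.97 and 13.3 CPM in the 6 h libraries. It was 9.94-fold lower at 24 h (log2 change -3.31 ± 0.42, adjusted p = 5.28e-07; -2.98 without 6 h replicates 1 and 2). Ifit1, which binds viral RNA, had 0.891, 0.666, 1.79 and 1.69 CPM in the 24 h libraries, against 5.48, 27.9, 5.07 and 7.35 CPM in the 6 h libraries (log2 change -3.18 ± 0.53, adjusted p = 3.24e-05). The size of that change leaned on 6 h replicate 2, without which it was -2.23 and still called. Rsad2, the antiviral enzyme viperin, had 0.386, 0.762, 1.10 and 0.742 CPM in the 24 h libraries, against 6.05, 7.64, 7.06 and 8.93 CPM in the 6 h libraries (log2 change -3.32 ± 0.34, adjusted p = 1.58e-08), and here the 6 h libraries were alike. Psmb8, a subunit of the immunoproteasome, fell by 2.22 and Oasl1 by 1.38. Irf7, a transcription factor of the response, overlapped at 20.1 to 21.5 CPM at 24 h and 18.1 to 30.2 CPM at 6 h (interval -0.42 to 0.03).

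MHC class II, which presents peptides to helper T cells and is expressed by intestinal epithelium under interferon gamma, fell in 6 of 7 genes and rose in 0. Cd74, the invariant chain, had 5.70, 3.95, 5.88 and 5.15 CPM in the 24 h libraries, against 37.5, 40.4, 47.4 and 47.1 CPM in the 6 h libraries. It was 8.25-fold lower at 24 h (log2 change -3.04 ± 0.11, adjusted p = 6.18e-16). H2-Ab1, a beta chain of the molecule, had 3.83, 3.43, 3.03 and 2.64 CPM in the 24 h libraries, against 12.8, 12.1, 12.6 and 13.3 CPM in the 6 h libraries (log2 change -1.97 ± 0.14, adjusted p = 3.81e-11). H2-Aa, its alpha chain, had 0.446, 0.952, 0.894 and 0.618 CPM in the 24 h libraries, against 5.52, 5.42, 6.85 and 6.64 CPM in the 6 h libraries (log2 change -3.08 ± 0.23, adjusted p = 4.52e-11). The 4 libraries of each group were close to one another in these genes and 6 h replicate 2 did not stand out. Of the 18 immune markers, 3 were tested, 1 of them called higher and 1 lower, with the sum over the list at 6.21 to 7.58 CPM at 24 h and 4.13 to 5.93 CPM at 6 h and with Adgre1 at 0 in all 8 libraries. The one called lower was Csf1r, a receptor of macrophages, with 0.119, 0, 0.0688 and 0.206 CPM in the 24 h libraries, against 0.676, 0.222, 0.457 and 0.435 CPM in the 6 h libraries (log2 change -2.08 ± 0.55, adjusted p = 0.00256). These are 0 to 5 reads per library at 24 h and 7 to 19 at 6 h. With only the libraries compared, 0 immune markers were called lower. The part of macrophages or other immune cells in the fall of MHC class II was not tested. Ciita, the master regulator of the class, was near the floor of 3 counts, at 0.148 to 0.476 CPM at 24 h and 0.444 to 0.581 CPM at 6 h, and was not called (adjusted p = 0.146).

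The core of the interferon-stimulated response element, GAAA, any 2 bases and GAAA, searched on both strands, stood upstream of 13 of 27 interferon-stimulated genes with a promoter in the table (48.1%) and of 3.01% of all 11334. The stretch of Isg15 lies at chr4:156200859-156200918 on the minus strand and that of Ifit1 at chr19:34640769-34640828 on the plus strand. Matches are in capitals. In Isg15 several overlap, and in Ifit1 both read on the opposite strand. They are shown because these genes were among the 12 largest falls.
Isg15: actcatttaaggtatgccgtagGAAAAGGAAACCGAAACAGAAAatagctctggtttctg
Ifit1: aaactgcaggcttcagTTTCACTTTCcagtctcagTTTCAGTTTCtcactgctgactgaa

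Targets of NF-kB were lower in 15 of 25 and higher in 7. Bcl3, a nuclear partner of NF-kB, had 19.7, 15.8, 16.2 and 16.2 CPM in the 24 h libraries, against 53.8, 48.3, 49.2 and 54.1 CPM in the 6 h libraries (log2 change -1.59 ± 0.09, adjusted p = 4.8e-13). Nfkbia, its feedback inhibitor, fell by 0.88, Nfkb2 by 0.97 and the chemokine Cxcl16 by 1.26. Pigr, the receptor that carries IgA across the epithelium, rose, with 1170.0, 1297, 1289 and 1290.0 CPM in the 24 h libraries, against 498, 569, 551 and 569.9 CPM in the 6 h libraries (log2 change 1.21 ± 0.06, adjusted p = 4.05e-14). None of these groups overlapped.

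Detoxifying genes of the NRF2 and glutathione list were 17 of 28 higher and 6 lower (median 0.35). Gstm3, a glutathione transferase, had 500.1, 436, 450.5 and 533 CPM in the 24 h libraries, against 162, 192, 201 and 206 CPM in the 6 h libraries (log2 change 1.33 ± 0.12, adjusted p = 3.51e-09). Gclm of glutathione synthesis rose by 0.58 and Gsta3 by 1.29. Srxn1, sulfiredoxin, fell by 0.50, and Nqo1, a standard target of NRF2, overlapped at 96.5 to 112 CPM at 24 h and 94.8 to 107 CPM at 6 h (interval -0.05 to 0.18). Hmox1, heme oxygenase 1, fell with all 8 libraries (-1.20, adjusted p = 0.00508) but missed the threshold without 6 h replicates 1 and 2 (-0.88, adjusted p = 0.0858).

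Clock genes were 9 of 20 higher and 2 lower. Dbp, an output of the clock, had 12.8, 13.4, 13.9 and 15.2 CPM in the 24 h libraries, against 4.24, 4.597, 3.82 and 4.23 CPM in the 6 h libraries (log2 change 1.71 ± 0.13, adjusted p = 9.05e-11). Nr1d2, a repressor of the clock, had 23.3, 26.3, 22.9 and 27.3 CPM in the 24 h libraries, against 12.1, 14.3, 12.2 and 11.2 CPM in the 6 h libraries (log2 change 0.9998 ± 0.09, adjusted p = 3.7e-09). Cry1, a repressor of another phase, fell, with 33.4, 34.99, 28.5 and 28.3 CPM in the 24 h libraries, against 58.8, 56.1, 61.2 and 57.8 CPM in the 6 h libraries (log2 change -0.90 ± 0.06, adjusted p = 2.58e-11). No overlap was seen in these 3. Per3 rose by 1.07, Tef by 0.77 and Arntl, which encodes BMAL1, by 0.32, Bhlhe40 fell by 0.83, and Per1 was not called (-0.09, interval -0.23 to 0.05).

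The same change over time was measured in organoids given Fz7-21S, whose libraries share none with DMSO. There 4786 of 15429 genes were higher at 24 h (31.0%) and 4332 lower (28.1%). Of the genes called with DMSO, 6782 were called in the same direction with Fz7-21S, which is 84.2% of the DMSO calls and 74.4% of the Fz7-21S calls, and 2 were called in opposite directions. Across genes the 2 sets of changes had a Pearson r of 0.803 and a Spearman rho of 0.837 (15429 genes, which are not independent replicates). The difference of the 2 time changes was called for 0 genes by edgeR, with 1360 at an unadjusted p below 0.05 and a smallest adjusted p of 0.227, and for 8 by DESeq2: Akr1b8, Asns, Cth, Pck2, Phgdh, Pycr1, Shmt2 and Tmem86a, each with a lower log2 time change under DMSO. For Akr1b8 that change was -0.49 with DMSO, against 0.13 with Fz7-21S, and for the other 7 it was positive with both. Asns, Cth, Phgdh, Pycr1 and Shmt2 act in amino acid synthesis. Cth changed by 0.996 with DMSO and 1.34 with Fz7-21S.

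With dFz7-21, 4603 of 15429 genes were higher at 24 h (29.8%) and 4640 lower (30.1%), and the lists moved as follows in the 3 treatments. Genes of G2 and mitosis were higher in 38 of 40 with DMSO, 38 with Fz7-21S and 35 with dFz7-21. Ribosome biogenesis was lower in 45 of 50 with DMSO, 43 with Fz7-21S and 46 with dFz7-21. Injury genes were lower in 16 of 23 with DMSO, 15 with Fz7-21S and 16 with dFz7-21. Interferon-stimulated genes were lower in 26 of 34 with DMSO (19 without 6 h replicates 1 and 2), 19 with Fz7-21S and 19 with dFz7-21. Nuclear respiratory chain genes were higher in 17 of 40 with DMSO, 36 with Fz7-21S and 34 with dFz7-21. That DMSO count was 6 without 6 h replicates 1 and 2 and 29 with only the libraries compared. Such counts set side by side are no test of a difference between treatments. Stem cell genes were lower in 5 of 28 with DMSO, 5 with Fz7-21S and 20 with dFz7-21.

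With dFz7-21 the time change differed from that with DMSO for 2029 genes (13.2%), of which 892 had the larger log2 change with DMSO and 1137 the smaller. Without the 3 libraries that hold mesenchymal transcripts, 1 of which is dFz7-21 at 24 h, 1618 genes passed the threshold. Olfm4 had the smallest p, changing by -0.14 ± 0.13 with DMSO and by -4.17 ± 0.15 with dFz7-21 (difference 4.03, adjusted p = 1.78e-12). Lgr5 rose by 1.13 with DMSO and changed by -1.49 with dFz7-21 (difference 2.61, adjusted p = 3.94e-07). Smoc2 rose with both, by 1.88 with DMSO and 0.98 with dFz7-21, and the difference was called (0.91). Mki67 changed by 1.004 with DMSO and 0.79 with dFz7-21, and their difference was not called (adjusted p = 0.483).

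**Figure D5:**
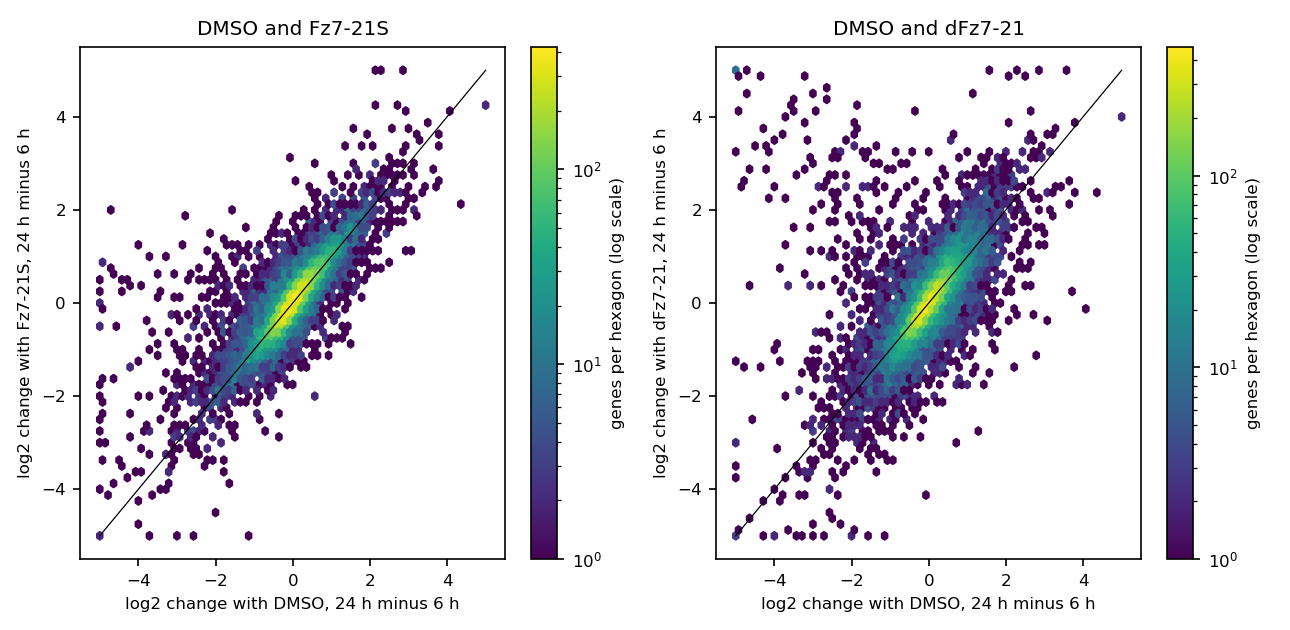
Log2 change at 24 h minus 6 h with DMSO (horizontal axes) against that with Fz7-21S (left) and with dFz7-21 (right) for 15429 genes; colour gives the number of genes per hexagon on a log scale, the line marks equal change, and values beyond 5 are drawn at 5. The cloud follows the line in both panels and is wider with dFz7-21 (Pearson r = 0.557, Spearman rho = 0.735) than with Fz7-21S (r = 0.803, rho = 0.837). The mesenchymal list had a median of -5.23 with DMSO and 5.68 with dFz7-21, where 24 h replicate 3 holds such transcripts. The part of these genes in r was not tested.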

How the data were processed

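Polyadenylated RNA of mouse intestinal organoids was sequenced in 24 libraries of 6 groups. Each deposited file holds, per the file headers, a count of reads that aligned uniquely to each gene model and an RPKM adjusted by a size factor for the library; the authors' values were used as deposited. Per the submitters' processing notes the aligner was GSNAP and the build GRCm38, with versions and annotation not given in the sources used here, and whether counting used strand is not stated. The deposited RPKM differed from the counts only by a constant per gene and library and entered no test. Total counts were 20446610 to 33102993 per library. Of 36528 gene IDs, 31049 were named from RefSeq and 78 from GENCODE, and 5401 without a name held 2.54% to 3.50% of counts.

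Counts were tested in R 4.3.3 with edgeR 4.0.16 (TMM factors, filterByExpr, which left 15429 genes, robust quasi-likelihood fit, all 24 libraries and 6 groups in one fit, Benjamini-Hochberg adjustment over all genes tested). CPM values use TMM library sizes. The adjusted p and the 95% intervals in the text come from this fit. Genes in a pair of models that share sequence or overlap are given as uncertain. Named were the 12 largest rises and 12 largest falls, taken from called genes whose mean level was 2 or more in log2 CPM, whose groups did not overlap and which were also called without 6 h replicates 1 and 2, with an established symbol, the key members and the 5 smallest p of each list, and the 6 smallest p of the difference from each peptide. Dcn, Lum, Ptprc, Adgre1, Cdh5, Sox10, Akr1b8, Pck2, Pycr1, Shmt2, Tmem86a, Hsd17b7, Cyp51, Msmo1 and Sc5d were named after their values were seen. The comparison, the gene lists and the genes shown were chosen with earlier results of these data known.

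Alternatives were DESeq2 1.42.0, other scalings, no filter on low counts, fewer libraries, a replicate block and leaving out libraries. The fit was tested on simulated counts of this comparison with 15429 genes. Of these, 66 were changed by 0.5, 67 by 1 and 67 by 1.5 on the log2 scale. It recovered 42.42%, 76.12% and 91.04% of them, with 7 false calls of 147. Promoter sequences are RefSeq's for GRCm38.p6. Figures and summaries used Python 3.11.15 with pandas 2.3.3 and numpy 2.4.6. Depth limits low genes: 3 counts, the floor used here, are 0.0906 to 0.147 CPM in these libraries, a limit of counting error only.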

Additional observations from a re-analysis of the deposited data

Results flagged for a closer look

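Within a group of 4, a library is listed here where its gap to the nearest of the others was above Dixon's critical share of the group's range for 4 samples, which chance alone gives in about 1 of 20 groups. Of 492 groups examined, 28 had such a library. Values are given against the range of the other 3 libraries of the same group. In 24 h replicate 1 Bcl3 lay at 19.7 against 15.8 to 16.2 CPM, Cxcl16 at 60.6 against 48.1 to 50 CPM and Il1rn at 105 against 83.3 to 86.4 CPM. The same library had Pigr at 1170.0 against 1290.0 to 1300.0 CPM and Srxn1 at 209 against 181 to 185 CPM. In 24 h replicate 2 Prn lay at 0.190 against 2.27 to 2.55 CPM, Prnd at 0.143 against 1.89 to 2.17 CPM and Spry2 at 9.52 against 15.4 to 16.1 CPM. The same library had Tubb2b at 39 against 42 to 42.5 CPM. In 24 h replicate 3 Gpt2 lay at 31.6 against 30.6 to 30.7 CPM. In 24 h replicate 4 Btc lay at 24.1 against 25.3 to 25.4 CPM, Clca1 at 37.7 against 32.3 to 32.8 CPM and Id3 at 23 against 29.9 to 30.8 CPM. The same library had Slc4a5 at 10.1 against 7.16 to 7.52 CPM. In 6 h replicate 1 Col1a1 lay at 80.6 against 0.125 to 10.2 CPM, Jag2 at 29.3 against 35.3 to 35.6 CPM and Nop58 at 340.0 against 310.0 to 315 CPM. In 6 h replicate 2 Errfi1 lay at 134 against 144 to 145 CPM, Ifit1 at 27.9 against 5.07 to 7.35 CPM and Mcm2 at 216 against 203 to 205 CPM. The same library had Muc2 at 108 against 122 to 124 CPM. In 6 h replicate 3 Cth lay at 113 against 103 to 104 CPM and Tm7sf2 at 55.9 against 50.5 to 50.9 CPM. In 6 h replicate 4 Avil lay at 10.4 against 8.05 to 8.34 CPM, Ccnd1 at 235 against 225 to 226 CPM and Chac1 at 6.64 against 8.30 to 8.47 CPM. The same library had Nkd1 at 5.10 against 2.74 to 3.03 CPM and Tubb2b at 25.9 against 22 to 22.2 CPM. The technical or biological source of these values was not tested.

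The change over time differed between treatments for 2029 genes by the test of the difference, DMSO minus dFz7-21, of which 6 were named for the smallest p. Olfm4 had a difference of 4.03. Tubb2b, a tubulin, changed by 0.85 with DMSO and -0.82 with dFz7-21 (difference 1.67). Clca3b, a protein of the mucus family, changed by -0.41 with DMSO and -2.39 with dFz7-21 (difference 1.98). Ces1g, a carboxylesterase of lipid handling, changed by 1.34 with DMSO and 3.09 with dFz7-21 (difference -1.75). Atp2c2, a calcium pump, changed by 1.18 with DMSO and -0.32 with dFz7-21 (difference 1.51). Sema7a, a semaphorin, changed by -0.40 with DMSO and -1.76 with dFz7-21 (difference 1.35).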

How the results depend on the processing

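Among the 369 genes named by the rule, no called change turned its direction under the alternatives run for them. The 8058 genes called at 24 h against 6 h numbered 6440 to 8902 under the alternatives that keep or drop several libraries or change the method, and 7408 to 7667 when 1 library was left out. The 1644 called genes with at least a 2-fold change numbered 1420 to 1819, and 1541 to 1747 when 1 library was left out. The difference in time change from Fz7-21S was called for 0 genes in each edgeR setting, 0 to 0 when 1 library was left out, and for 8 genes by DESeq2. The difference from dFz7-21 was called for 3418 genes when fitted with only the libraries compared, for 1803 to 1955 when 1 library was left out, and otherwise for 1475 to 2391, against 2029 with all 24 libraries. The cause was not tested.

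With the replicate number as a block, 8095 genes were called, 1642 of them at least 2-fold, the difference from Fz7-21S was called for 0 genes and that from dFz7-21 for 1947. The deviations of libraries with the same number at 24 h and 6 h had correlations of 0.046, 0.0099, -0.008 and 0.0191, so no pairing by number was seen. The labels do not state whether the numbers pair the samples. Deviations of single libraries, such as the mesenchymal transcripts of 6 h replicates 1 and 2, could hide a pairing. Of 369 genes named by the rule, 354 kept their side of the threshold without 6 h replicates 1 and 2 and 15 were not called there. With dFz7-21 24 h replicate 3 left out as well, 359 kept their side and 10 were not called. In simulated data at this depth and 4 libraries a group, 42.42% of genes changed by 0.5 on the log2 scale were recovered. Smaller changes were not simulated. Far fewer genes were changed there than were called in the data, which makes the adjusted threshold stricter, so this share does not carry over. The share of changes missed in the data was not tested.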

Other observations

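Targets of the aryl hydrocarbon receptor, a sensor of dietary and microbial ligands, did not move as one: 3 of 11 were higher at 24 h and 4 lower. Cyp1a1, its most responsive target, had 41.4, 52.7, 48.1 and 46.1 CPM in the 24 h libraries, against 235, 209.7, 232 and 199.8 CPM in the 6 h libraries (log2 change -2.22 ± 0.10, adjusted p = 1.23e-14). Ahrr, the repressor that the receptor induces, fell, with 0.505, 0, 0.241 and 0.412 CPM in the 24 h libraries, against 2.17, 2.19, 2.57 and 3.40 CPM in the 6 h libraries (log2 change -3.05 ± 0.42, adjusted p = 1.55e-06). Tiparp, another target, fell by 0.69. Ugt1a6a, a conjugating enzyme whose model overlaps that of Ugt1a6b, rose by 0.80, and reads of the pair cannot be assigned with certainty. Iron and zinc handling was mixed as well, 3 of 13 higher and 5 lower. Tfrc, the transferrin receptor, had 133, 138, 132 and 143 CPM in the 24 h libraries, against 456, 474, 415 and 369 CPM in the 6 h libraries (log2 change -1.65 ± 0.11, adjusted p = 1.72e-11), and Slc39a10, a zinc importer, fell by 1.59. The metallothioneins, whose levels follow zinc, were not called, with Mt1 at -0.17 (interval -0.47 to 0.13) and Mt2 at 0.21 (interval -0.10 to 0.53).

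Antimicrobial genes were 5 of 14 higher and 6 lower. Duox2, which makes hydrogen peroxide at the cell surface, had 16.6, 15.4, 20.4 and 20.4 CPM in the 24 h libraries, against 46.2, 54.8, 50.9 and 49.05 CPM in the 6 h libraries (log2 change -1.46 ± 0.12, adjusted p = 1.56e-10), and its maturation factor Duoxa2 fell by 0.86. Fut2, which adds fucose to surface glycans, rose, with 10.6, 7.62, 9.66 and 11.1 CPM in the 24 h libraries, against 2.88, 2.16, 4.19 and 3.79 CPM in the 6 h libraries (log2 change 1.59 ± 0.20, adjusted p = 4.38e-07). Reg3b, an antibacterial lectin, had 44.1, 41.3, 51.4 and 39.96 CPM in the 24 h libraries, against 20.1, 18.1, 26.2 and 36.1 CPM in the 6 h libraries (log2 change 0.82 ± 0.19, adjusted p = 0.000873), and without 6 h replicates 1 and 2 its change was 0.50 (adjusted p = 0.0509). Targets of p53 were 5 of 24 higher and 9 lower: Mdm2, its ubiquitin ligase, fell by 0.62 and Aen, a nuclease, by 0.98. Of the markers of other lineages, 3 of 18 immune and 7 of 16 endothelial and glial genes passed the filter on low counts. Itgam, an integrin of myeloid cells, had 5.17, 4.52, 5.67 and 6.01 CPM in the 24 h libraries, against 2.56, 3.23, 2.41 and 3.75 CPM in the 6 h libraries, and was called higher, whereas Csf1r of macrophages was called lower (log2 change -2.08 ± 0.55, adjusted p = 0.00256). The call of Csf1r was lost when fitted with only the libraries compared. Esam, an adhesion molecule of endothelium, was called higher, at 5.08 to 6.95 CPM at 24 h and 2.71 to 3.71 CPM at 6 h. Mitochondrially encoded genes had 0 of 9 higher and 1 lower, a call lost without any 1 of 24 h replicates 1, 2 and 4 or 6 h replicates 1, 3 and 4 and with no filter on low counts. By contrast 3 were lower with DESeq2, 5 when fitted with only the libraries compared and 7 with only the 6 DMSO libraries without 6 h replicates 1 and 2.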
